A study of Mus musculus with 7 samples.

Results

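Fast excitatory transmission in the hippocampus runs through AMPA receptors, glutamate-gated cation channels assembled from the pore subunits GluA1 to GluA4. This account covers the mouse genes of 10 of their proteins among the 27583 genes of the deposited table: the subunit genes Gria1, Gria2, Gria3 and Gria4, the transmembrane AMPA receptor regulatory proteins (TARPs) Cacng2, Cacng3, Cacng4 and Cacng8, and the cornichons Cnih2 and Cnih3. The genes were taken by name, and all 10 were present in the table and passed the filter on low values, a median of at least 1 FPKM (fragments per kilobase of gene, scaled to the fragments of the library). The samples were 7 libraries of hippocampus RNA from male wild-type C57BL/6 mice (C57BL6/J in the titles), made with a SMARTer mRNA kit. The series set hippocampus after spinal cord injury against that of healthy animals, but its 7 samples carry identical labels apart from a running number, so injured and healthy animals were not compared here and all libraries stand in 1 group as replicates 1 to 7. The labels do not state that every library is a separate animal, nor age, time after injury or pooling, and the spread between libraries may be technical.

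As background, receptors that hold GluA2 pass little calcium, because its transcript is edited in the codon for the tip of the pore loop, and receptors without it pass calcium. TARPs bind the receptor in the membrane, carry it to the synapse, anchor it on the scaffold protein PSD-95 and slow its closing. Cornichons CNIH2 and CNIH3 help export the receptor from the endoplasmic reticulum and also slow its kinetics. In pyramidal cells of the hippocampus GluA1 with GluA2 is known as the leading combination, and the TARP gamma-8, encoded by Cacng8, and CNIH2 as the leading auxiliary proteins. Gria4 is known from interneurons, thalamus and glial precursors, and Cacng4 from striatum, the developing brain and glia.

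The pore loop is shown because it is where the subunits that the ratios below compare differ in function. Each line gives bases of the coding strand, read from GENCODE M21 transcripts on GRCm38 (the build mm10), with the codon of the Q/R site in capitals. The segments lie at chr11:57243073-57243117 (plus strand, exon 11 of Gria1), chr3:80706890-80706934 (minus strand, exon 11 of Gria2), chrX:41610244-41610288 (plus strand, exon 11 of Gria3) and chr9:4464116-4464160 (minus strand, exon 12 of Gria4).
Gria1: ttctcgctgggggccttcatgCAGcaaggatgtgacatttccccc
Gria2: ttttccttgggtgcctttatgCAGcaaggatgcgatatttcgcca
Gria3: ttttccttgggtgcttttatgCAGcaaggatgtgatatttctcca
Gria4: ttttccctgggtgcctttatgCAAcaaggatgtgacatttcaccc
The genomic codon is a glutamine codon in each gene, CAG in Gria1, Gria2 and Gria3 and CAA in Gria4. In Gria2 it is codon 607, and the arginine made there in brain comes from editing of the RNA by ADAR2, the product of Adarb1. A table of gene levels does not show editing, nor the flip and flop splice forms.

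The TARPs share a tail that binds the PDZ domains of PSD-95, shown because it links the TARPs to the scaffold gene Dlg4 described further on. The lines give the last 30 coding bases before the stop codon from the same annotation, with the last 4 codons, which encode the binding motif, in capitals. They lie at chr15:77995152-77995181 (minus strand, exon 4 of Cacng2), chr7:122768814-122768843 (plus strand, exon 4 of Cacng3), chr11:107734783-107734812 (minus strand, exon 4 of Cacng4) and chr7:3415573-3415602 (plus strand, exon 6 of Cacng8).
Cacng2: aacacagccaaccgccggACCACGCCCGTA
Cacng3: aatccggccaacagacgtACCACGCCTGTC
Cacng4: agcatgctgaaccggcggACGACTCCCGTG
Cacng8: aacacgctcaacaggaaaACCACGCCCGTG

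Paralogs this alike could exchange reads, so the coding sequences were compared. Pairs of subunit genes were 71.7% to 74.6% identical over their aligned coding bases, pairs of TARP genes 64.1% to 72.7%, and Cnih2 and Cnih3 77.1%. The longest identical run between any 2 subunit coding sequences was 41 bases, in Gria2 (chr3:80691348-80691388, minus strand, exon 14) and Gria4 (chr9:4432801-4432841, minus strand, exon 15).
Gria2 and Gria4: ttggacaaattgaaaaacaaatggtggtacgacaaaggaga
Among the TARPs the longest run was 23 bases. The read length is not given in the sources used here, so the share of reads that these runs could misplace was not tested.

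The depth behind each level is high. FPKM values step in units of 1 read, which placed the depth at 37324418 to 38448101 reads per library. The same steps gave whole reads for every member in every library, within 0.01 of a whole number: from 28423 to 36364 for Gria2 and from 735 to 2553 for Cacng4, the member with the lowest count. Counting error at the lowest library was therefore between 0.585% for Gria1 and 3.69% for Cacng4. Replicate 5 stood apart from the other libraries on markers of regions and cells. The summed FPKM of 10 genes of striatal projection neurons was 1668 there and 59.9 to 77.1 elsewhere. That of 5 dentate granule cell genes was 33.9 there and 57.03 to 85.0 elsewhere, with all 5 lowest in replicate 5. Of the hippocampal markers checked, 5 each of dentate granule, CA1 and CA3 or CA2 cells, each was detected in each library, also in replicate 5. In RNA of a whole tissue piece, fewer cells of a type and less RNA per cell cannot be told apart.

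Of the 10 genes, Cnih2 and Gria1 were the most abundant in each library and Cacng4 had the lowest median. Cnih2 (chr19:5092868-5098521, minus strand), the hippocampal cornichon, had a median of 266 FPKM, from 187 to 281. Gria1 (chr11:57011387-57330244, plus strand) had 169, from 124 to 188. Gria2 (chr3:80681450-80802835, minus strand) followed with 74.7, from 66.3 to 84.3, and Cacng8 (chr7:3390683-3415648, plus strand) with 72.2, from 44.4 to 77.4. Gria3 (chrX:41400854-41678601, plus strand) had 35.7, from 33.0 to 38.5, and Cacng3 (chr7:122670492-122769393, plus strand), the TARP gamma-3, had 29.6, from 24.5 to 36.1. These 6 genes cover the upper part of the order, and the remaining 4 had medians from 6.43 to 12.4.

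Cnih3 (chr1:181352628-181460641, plus strand) had a median of 12.4 FPKM, from 7.61 to 14.6, and Gria4 (chr9:4417896-4796234, minus strand) had 11.0, from 8.33 to 12.7. Cacng2 (chr15:77991748-78120028, minus strand), which encodes stargazin, had 9.06, from 8.27 to 10.4. Cacng4 (chr11:107732357-107794557, minus strand) had 6.43, from 5.32 to 18.6. In this order 3 of the 9 pairs of neighbours had ranges that did not overlap: Gria1 above Gria2, Cacng8 above Gria3, and Cacng3 above Cnih3. The order rests on the gene lengths behind the FPKM, and some directions between neighbours turned with lengths from GENCODE M21, which are described further on. Cnih3 had a higher median than Cacng3 under each of the 4 other lengths, where Cacng3 led in 0 or 1 of 7 libraries. By the median, Gria2 led Gria1 with the shortest nearly full coding transcripts, and Cacng8 led Gria2 with all exons. Cacng2 led Gria4 in each library with coding sequence only. With that length and with the shortest nearly full coding transcripts, the ranges of Gria1 and Gria2 overlapped, as did those of Cacng8 and Gria3. With the deposited FPKM, Cnih2 exceeded Gria1 in 7 of 7 libraries although their ranges met. Neighbours that changed places between libraries were Gria2 and Cacng8 (in order in 6 of 7), Gria3 and Cacng3 (6 of 7), Cnih3 and Gria4 (5 of 7), Gria4 and Cacng2 (5 of 7), and Cacng2 and Cacng4 (6 of 7). Without replicate 5, 6 of the 9 pairs had separate ranges, with Cnih2 and Gria1, Gria3 and Cacng3, and Cacng2 and Cacng4 added.

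**Figure D1:**
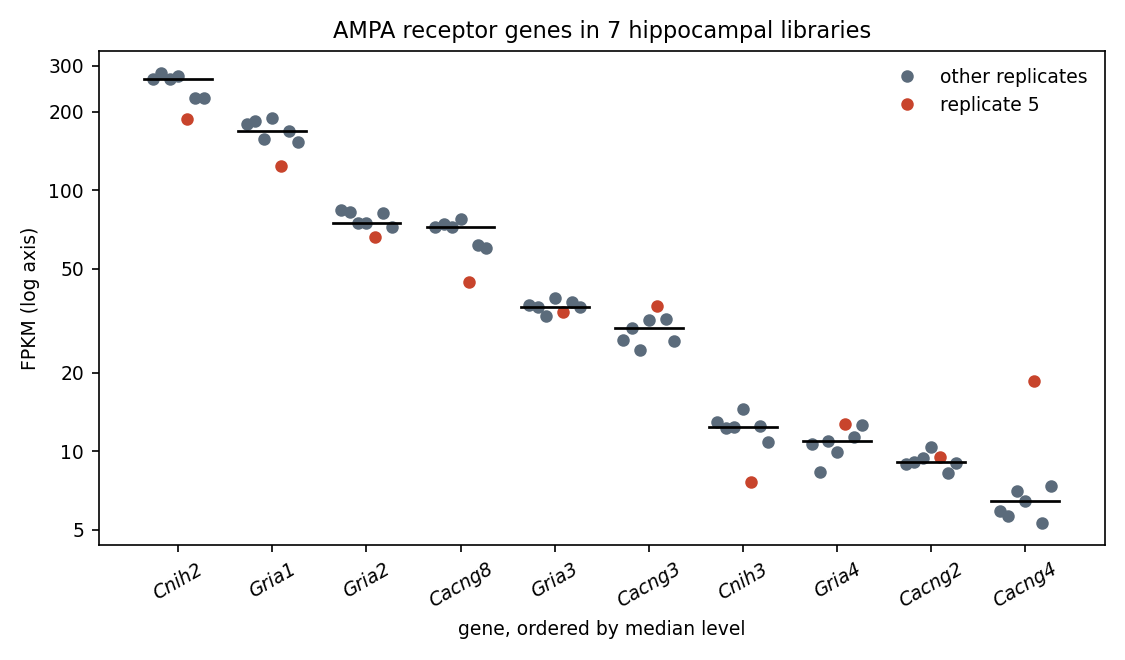
FPKM (log axis) of the 10 AMPA receptor genes, ordered by median; each point is 1 library, placed left to right as replicates 1 to 7, red is replicate 5 and the bar is the median of 7. Cnih2 (median 266) and Gria1 (169) lie highest, and replicate 5 falls below the other libraries for 5 genes and above them for 3.

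With the deposited FPKM, Gria1 made up most of the subunit transcripts, while with other gene lengths its median share was 65.0% (all exons), 45.8% (coding sequence only) and 37.6% (shortest nearly full coding transcripts, where Gria2 led with 43.2%). In deposited FPKM its share of the summed FPKM of the 4 subunits had a median of 56.9% and an SD of 2.65 percentage points over 7 libraries. Replicate 5 was lowest at 52.2%, and replicate 4 highest at 60.5%. Gria2 had 27.1% at the median, from 23.9% to 28.0%. Gria3 had 12.4%, from 11.5% to 14.5%, and Gria4 had 3.79%, from 2.69% to 5.37%. Replicate 5 had the highest share of Gria2, Gria3 and Gria4, also with each of the other gene lengths. The other libraries had 23.9% to 27.3% for Gria2, 11.5% to 13.0% for Gria3 and 2.69% to 4.58% for Gria4. In deposited FPKM the order Gria1, Gria2, Gria3, Gria4 held in each library.

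The ratio of Gria1 to Gria2 had a median of 2.12 in FPKM. By library it was 2.12, 2.22, 2.10, 2.53, 1.87, 2.06 and 2.12 in replicates 1 to 7. Replicate 4 was highest and replicate 5 lowest, and the other 5 libraries lay between 2.06 and 2.22. In replicate 4 Gria1 was the highest of the 7 libraries (188 FPKM), while Gria2 had 74.6, beside 74.7 in replicate 3. Gria3 per Gria2 was 0.456 at the median, from 0.430 to 0.517, and Gria4 per Gria2 was 0.139, from 0.101 to 0.192.

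The size of these ratios rests on the gene lengths behind the FPKM. The steps in the values imply lengths of 6272 bases for Gria1 and 11370 for Gria2, since each gene is divided by its own length. In reads, with no length, Gria1 had 1.03 to 1.39 times as many as Gria2, with a median of 1.17. GENCODE M21 holds coding transcripts of Gria2 of 10371 and 4026 bases, and one of Gria1 of 5361. With the shortest transcript of each gene that holds at least 90% of the longest coding sequence, the median ratio turned to 0.878 and Gria2 was above Gria1 in 6 of 7 libraries. With coding sequence only it was 1.14, and with all exons 3.01. Which transcripts the libraries held was not tested. The order of the libraries within a ratio of 2 genes does not depend on length, so that replicate 4 stayed highest and replicate 5 lowest under each of the lengths used.

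**Figure D2:**
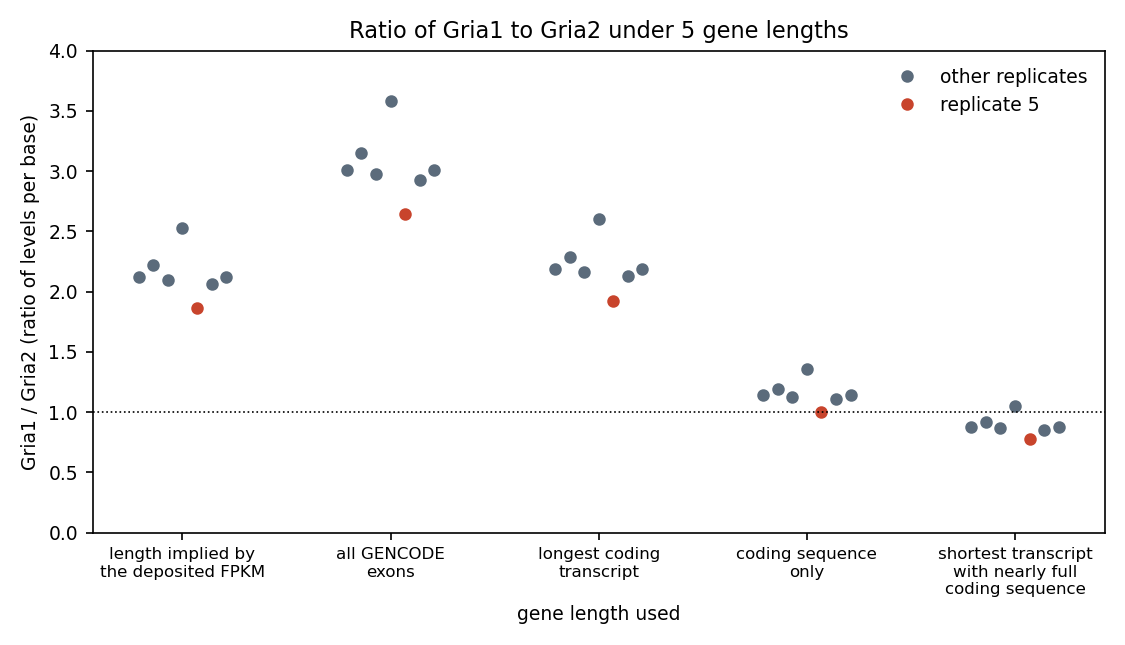
Ratio of Gria1 to Gria2 (vertical axis, level per base) in each of the 7 libraries under 5 gene lengths; red is replicate 5 and the dotted line marks equal levels. The median is 2.12 with the lengths implied by the deposited values, 3.01 with all exons, 1.14 with coding sequence only and 0.878 with the shortest nearly full coding transcripts.

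With the deposited FPKM, Cacng8 made up most of the transcripts of the 4 TARPs covered here in 6 libraries, and less in replicate 5. Its share of the summed FPKM of the 4 TARPs was 63.6%, 62.7%, 63.8%, 61.4%, 40.9%, 57.4% and 58.4% in replicates 1 to 7. Replicate 5 lay far below, and replicates 6 and 7 below the first 4. Cacng3 took 21.7% to 29.96% in the 6 other libraries and 33.3% in replicate 5. Cacng2 stayed between 7.64% and 8.79%, and Cacng4 took 17.1% in replicate 5 and 4.74% to 7.14% elsewhere. The summed TARPs were 109 FPKM in replicate 5, inside the 103 to 126 of the other libraries. Cacng7, at 30.8 to 38.9 FPKM, and Cacng5 are further TARPs, described below, and are outside these shares and sums. The share of Cacng8 among all of them is therefore lower than given here.

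These shares too rest on gene length. The median share of Cacng8 was 48.9% with coding sequence only and 77.4% with the shortest nearly full coding transcripts, and that of Cacng3 was 11.4% with the latter. Replicate 5 had the lowest share of Cacng8 and the highest share of Cacng4 under each of the 5 lengths. It had the highest share of Cacng3 except with coding sequence only, where it had 22.8% and replicate 6 had 23.4%. For Cacng2 replicate 5 lay inside the others with the deposited lengths and with coding sequence only, but was highest with the rest. There it had 10.8% against 9.27% to 10.6% (all exons) and 9.71% against 7.97% to 9.24% (longest coding transcripts). With the shortest nearly full coding transcripts it had 8.17% against 6.26% to 7.36%. The summed TARPs were lowest in replicate 5 with the shortest nearly full coding transcripts (117, against 123 to 153) and with the longest coding transcripts (98.2, against 98.3 to 121).

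**Figure D3:**
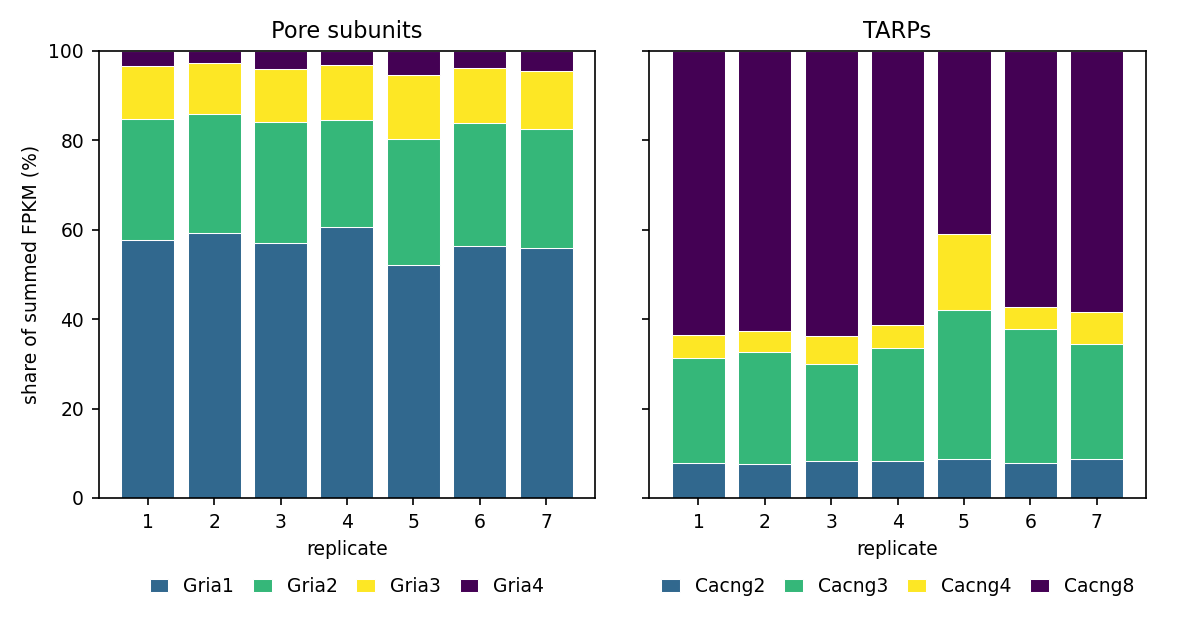
Share of summed FPKM (percent, vertical axis) of the 4 pore subunits (left) and the 4 TARPs (right) in replicates 1 to 7, with the deposited gene lengths. Gria1 takes 52.2% to 60.5% in each library, while in replicate 5 Cacng8 is at 40.9% and Cacng4 at 17.1% of the TARPs.

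Cacng4 differed most between libraries. Its FPKM was 5.90, 5.62, 7.06, 6.43, 18.6, 5.32 and 7.35 in replicates 1 to 7. The single high value is 3.01 times the median of the other 6 libraries, which lay within 1.38-fold of each other. Its SD on log2(FPKM + 1) was 0.56, and 0.747% of the 12052 genes with a median of at least 1 FPKM had a larger one. Cacng3 was also highest in replicate 5, at 36.1 FPKM against 24.5 to 32.1. Cacng2 was inside the range of the others, at 9.50 against 8.27 to 10.4.

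Cacng8, Cnih2 and Cnih3 were lowest in replicate 5. Cacng8 had 72.2, 74.4, 72.2, 77.4, 44.4, 61.5 and 60.1 FPKM in replicates 1 to 7, so that replicate 5 stood at 61.5% of the median of the others. Cnih2 had 266, 281, 266, 275, 187, 225 and 226 FPKM, and replicate 5 stood at 70.5%. Both genes were high in the first 4 replicates, lower in replicates 6 and 7, and lowest in replicate 5, with no overlap between these 3 steps. Cnih3 had 7.61 FPKM in replicate 5 (61.3% of the median of the others) and 10.8 to 14.6 elsewhere. The ratio of Cnih3 to Cnih2 had a median of 0.0480. Replicate 5 was lowest at 0.0406 and replicate 6 highest at 0.0554. It too rests on length, since its median was 0.398 with the shortest nearly full coding transcripts.

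The sums of some marker lists followed these steps and those of others did not. The dentate granule cell genes summed to 70.4 to 85.0 FPKM in the first 4 replicates, 57.03 and 60.1 in replicates 6 and 7, and 33.9 in replicate 5. The 5 genes of CA3 and CA2 cells gave 108 to 121 in the first 4, 93.1 and 97.6 in replicates 6 and 7, and 80.1 in replicate 5. Not every gene of these 2 lists followed the steps. The dentate gene Tdo2 had 6.03 in replicate 6 and 4.52 in replicate 4. Rgs14, of CA3 and CA2 cells, was lowest in replicate 7, at 33.0 beside 34.4 in replicate 5. The 5 CA1 genes did not follow the steps in sum: replicate 5 was lowest at 78.8, but replicate 3 had 83.5, below the 91.8 and 86.8 of replicates 6 and 7. They were also divided in replicate 5. Fibcd1 (12.7 against 21.8 to 27.0), Lefty1 (3.09 against 5.96 to 7.56) and Gpr161 (4.12 against 9.07 to 12.4) were lowest there. Pou3f1 lay inside the others, and Wfs1 was highest, at 37.8 against 25.9 to 37.5. The summed genes of mature oligodendrocytes ran against the steps, at 209 to 237 in the first 4 replicates and 290 to 331 in the other 3. Mobp, of that list, did not, with 98.2 in replicate 2 and 95.1 in replicate 6. The part of these markers in the levels of Cacng8 and the cornichons was not tested.

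Among the pore subunits, Gria1 and Gria2 were lowest in replicate 5 and Gria3 was not. Gria1 had 179, 183, 157, 188, 124, 169 and 153 FPKM in replicates 1 to 7, with replicate 5 at 71.1% of the median of the others. Gria2 had 84.3, 82.6, 74.7, 74.6, 66.3, 81.9 and 72.4, with replicate 5 at 84.6%. For Gria1 the gap below the others was wide, from 124 to 153, while for Gria2 it was narrow, from 66.3 to 72.4. Gria3, a subunit that pairs with GluA2, had 34.3 in replicate 5, inside 33.0 to 38.5, and was the steadiest member, with a CV of 5.12% over 7 libraries.

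Gria4, the least abundant subunit, was highest in replicate 5 by a narrow gap. Its FPKM was 10.6, 8.33, 11.0, 9.90, 12.7, 11.4 and 12.6 in replicates 1 to 7, so replicate 5 was highest, just above replicate 7. After rescaling each library to the same FPKM sum, replicate 5 no longer led. Relative to the other subunits, which does not depend on that scaling, Gria4 was highest in replicate 5. Its share was 5.37% there against 2.69% to 4.58%, and it was highest under each of the 5 lengths. Gria4 per Gria2 was 0.192 there against 0.101 to 0.173. By the FPKM of Gria4 the libraries stood in nearly the order of the summed mature oligodendrocyte genes, an observation made after the values were seen. Replicate 2 was lowest on both (8.33 FPKM for Gria4, 209 for the list), followed by replicates 4, 1, 3 and 6. Replicates 5 and 7 were the top pair on both, in opposite order. Mobp, of that list, did not follow this order, with 98.2 in replicate 2 and its lowest value, 79.0, in replicate 4. The 3 genes of oligodendrocyte precursors, cells known to express Gria4, summed to 22.3 FPKM in replicate 5 and 18.6 to 25.9 elsewhere. The part of either list in Gria4 was not tested.

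Counted together, 5 of the 10 genes were lowest in replicate 5 and 3 were highest there. Over all 12052 genes, 26% were lowest and 21.1% were highest in that library. At least 1.5-fold below the median of the other 6, on log2(FPKM + 1), were 2 of the 10 (Cacng8 and Cnih3), against 2.84% of all genes. At least 1.5-fold above was 1 of the 10 (Cacng4), against 2.78% of all genes. The log2 differences ran from -0.69 for Cacng8 and -0.64 for Cnih3 through -0.50 for Cnih2, -0.49 for Gria1 and -0.24 for Gria2 to 0.22 for Gria4, 0.35 for Cacng3 and 1.45 for Cacng4. Their median was -0.15, and that of all genes was -0.01. With 1 library and no label that sets it apart, these differences were not tested.

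The extremes of the remaining libraries held fewer members, except in replicate 4. Replicate 4 was highest for 5 of the 10 genes (Gria1, Gria3, Cacng2, Cacng8 and Cnih3), against 15.6% of all genes, and lowest for none, against 20.1%. Replicates 3 and 6 were each lowest for 2 members, against 10.7% and 9.76% of all genes, and replicate 2 was lowest for Gria4, against 16.8%. Replicate 1 was highest for Gria2, against 9.08%, and replicate 2 for Cnih2, against 11.7%. Replicate 4 also had the lowest sum of FPKM, 327826, with 339204 in the next lowest library.

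**Figure D4:**
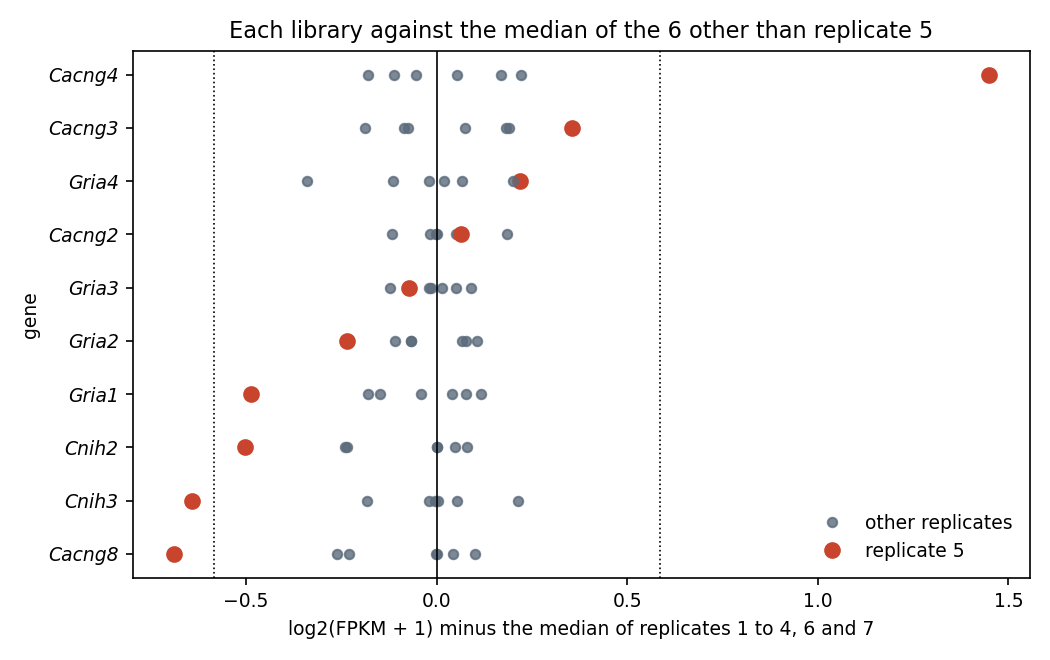
Log2(FPKM + 1) of each of the 10 genes in each library, minus the median of the 6 libraries other than replicate 5; red is replicate 5, grey the others, and dotted lines mark 1.5-fold. Cacng8 (-0.69) and Cnih3 (-0.64) lie past the lower line and Cacng4 (1.45) past the upper one.

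In replicate 5 the summed subunits stood at 77.7% of the median of the others, and the summed cornichons at 70.03%. The 4 subunits summed to 237 FPKM there and 274 to 311 elsewhere, and the 2 cornichons to 195 there and 236 to 293 elsewhere. Summed TARPs per summed subunits were 0.458 in replicate 5 and 0.357 to 0.411 elsewhere, but 0.271, inside 0.235 to 0.289, with the shortest nearly full coding transcripts. Summed cornichons per summed subunits were lowest in replicate 6, at 0.791, and 0.822 in replicate 5, inside the 0.791 to 1.01 of the others, but with those transcripts replicate 5 was lowest, at 0.592 against 0.626 to 0.769. The ratio of Cacng4 to Cacng8 was 0.418 in replicate 5 and 0.0756 to 0.122 elsewhere, and that of Cacng3 to Cacng8 was 0.813 and 0.340 to 0.522. The median of the latter over 7 libraries was 0.412, and 0.399 with coding sequence only. It was 0.251, 0.203 and 0.148 with all exons, the longest coding transcripts and the shortest nearly full coding transcripts.

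Markers outside the pyramidal and granule cells stood beside these values. In replicate 5 the striatal genes were far above the other libraries, as given above. The 7 interneuron genes summed to 376 FPKM against 293 to 324, and were divided: Gad1, Gad2 and Slc32a1, genes of GABA synthesis and packaging that striatal projection neurons also use, were highest there, Sst, Pvalb and Lhx6 lay inside the others, and Vip was lowest. Slc32a1 had 44.5 against 16.5 to 18.6, and Vip 6.25 against 9.36 to 12.7. The 6 thalamic genes summed to 53.4 there, inside 26.3 to 96.5, and the 5 cortical genes to 11.5, below the 16.0 to 20.2 of the others. The 4 astrocyte genes summed to 167, inside 166 to 187, and the 5 choroid plexus genes to 64.5, inside 24.7 to 1107. The part of the striatal and interneuron genes in the level of Cacng4 was not tested.

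Other auxiliary and assembly proteins lay on both sides in replicate 5. Of 21 such genes, 20 passed the filter (Shisa8 did not), and 9 were lowest in replicate 5, 5 were highest and 6 lay inside the others, beside 26% of all genes lowest and 21.1% highest. Gsg1l, which encodes an auxiliary subunit that slows recovery from desensitization, had 16.7 FPKM there and 3.998 to 5.71 elsewhere. Nptx1, a secreted pentraxin that clusters AMPA receptors, had 54.4 and 96.0 to 144. Cnih1, the cornichon of general protein export, varied least in this list, at 48.1 and 39.9 to 44.6. The list's median log2 difference was -0.14.

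Further members of that list were picked after their values were seen. Shisa6, an auxiliary subunit that holds receptors at synapses, had 7.99 FPKM in replicate 5 and 15.0 to 20.6 elsewhere. Olfm1, an olfactomedin found with AMPA receptors, had 181 and 293 to 346, and Nptxr, the pentraxin receptor, had 3.68 and 6.94 to 8.93. Syndig1, a synaptic organizer that binds the receptor, had 19.8 and 14.7 to 15.9. Cacng7, a TARP of the second type, was abundant and lay inside the others, at 32.5 against 30.8 to 38.9, and Cacng5, its close relative, had 2.95 against 1.45 to 3.23. The skeletal muscle genes Cacng1 and Cacng6 were at 0.551 FPKM or less in each library and did not pass the filter. Cacng1 had that 0.551 in replicate 5, at most 0.0218 elsewhere, and was listed at 0 in 4 of 7. Cacng6 was lowest in replicate 5, at 0.148 against 0.220 to 0.377.

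Genes of trafficking and anchoring had a median SD of 0.11 on log2(FPKM + 1), against 0.18 for the auxiliary list and 0.12 for all genes. Of 13, 12 passed the filter (Grip1 did not), 3 were lowest in replicate 5, 4 were highest and 5 lay inside, beside the same 26% and 21.1% of all genes, so the count of the lowest was near the background. Akap5, which anchors kinase and phosphatase to the receptor, had 20.4 FPKM in replicate 5 and 8.14 to 11.0 elsewhere. Dlg1, the scaffold SAP97, had 9.45 and 5.69 to 7.43. Stx12 varied least, at 65.4 and 66.2 to 73.4. Dlg4, the PSD-95 gene that the TARP tails shown above address, had 90.7, inside 81.0 to 105, and was named after its value was seen. Nsf, an ATPase that binds the GluA2 tail, had 244 and 308 to 343, also named afterwards.

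The editing enzymes did not stand apart in replicate 5, and all 3 lay inside the other libraries. Adarb1, which edits the Gria2 codon shown above, had 6.91, 7.10, 10.5, 9.10, 8.35, 6.17 and 10.4 FPKM in replicates 1 to 7. Replicates 3 and 7 were highest, and these libraries also had the highest summed thalamic genes, 94.3 and 96.5 FPKM against 26.3 to 53.4 in the others. The 5 choroid plexus genes were highest in the same libraries, 850 and 1107 FPKM against 24.7 to 249. The part of either list in Adarb1 was not tested. Adar had 25.1 in replicate 5 and 25.0 to 29.1 elsewhere, and Adarb2, a brain relative that lacks known editing activity, had 3.44 and 2.67 to 3.79. After rescaling to the same FPKM sum, Adar was lowest in replicate 5. Over the 3 lists that passed, 35 genes, 12 were lowest in replicate 5 and 9 highest, beside 26% and 21.1% of all genes, with a median log2 difference of -0.08.

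**Figure D5:**
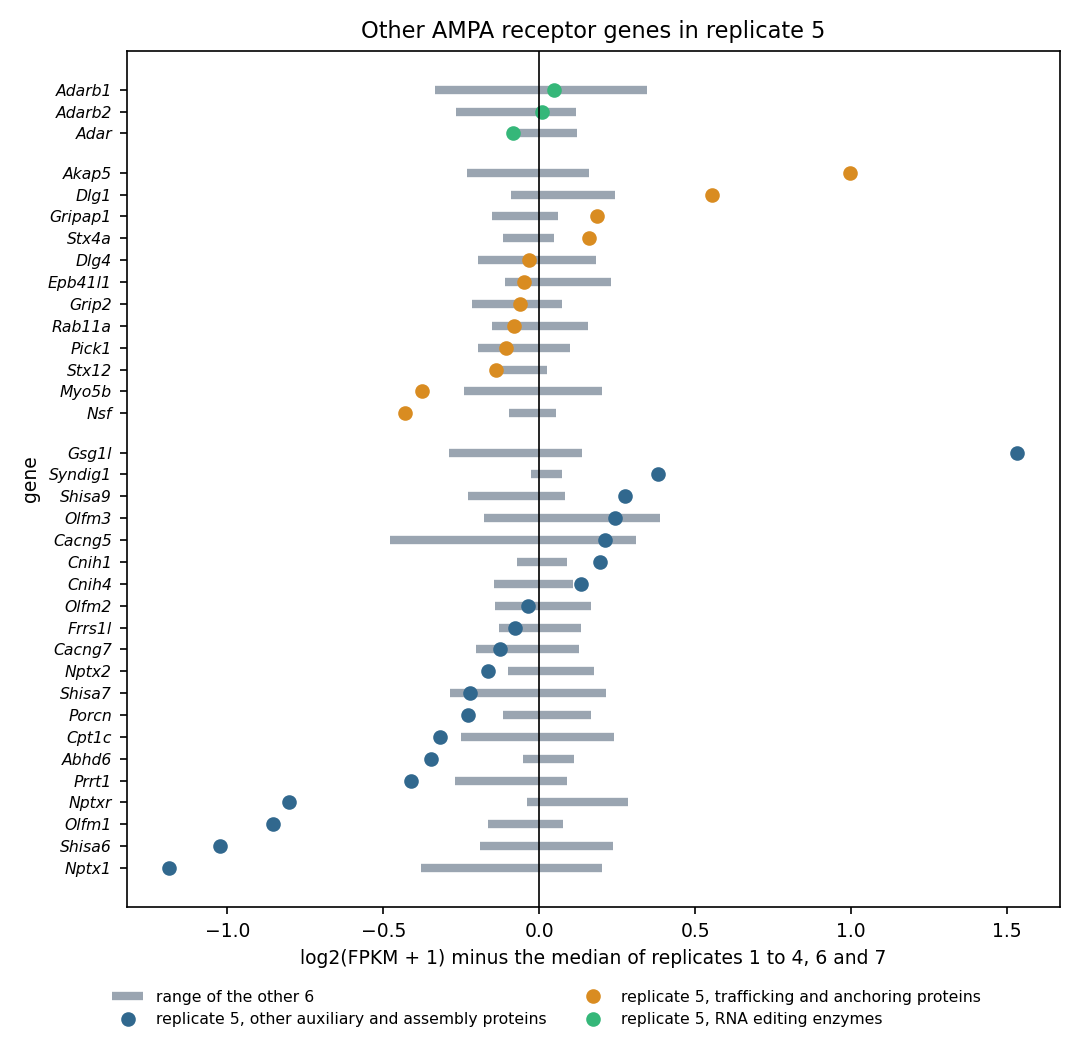
Replicate 5 (points) against the range of the other 6 libraries (grey bars) for 35 other AMPA receptor genes, as log2(FPKM + 1) minus the median of those 6. Gsg1l and Akap5 lie farthest above the bars and Nptx1 and Shisa6 farthest below, while the 3 editing enzymes lie inside.

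The genes whose profile over the 7 libraries was most like that of a member were found by the root mean square difference of centred log2(FPKM + 1), over all 12052 genes. Nearest to Gria1 were Wasf1 (0.029) and Kalrn (0.030), against a median of 0.22 over all genes. Nearest to Gria2 were Map10 (0.029) and Vstm2a (0.036), and to Gria3, whose profile is nearly flat, Ylpm1 and Nipbl (both 0.017). Map10 is low, at 0.859 to 1.36 FPKM, where the pseudocount of 1 shrinks changes. Gria4 had Tmem63a (0.027) and Plekhb1 (0.033). The nearest genes lie below the median by the way they were picked, so the medians give only a scale. They ran from 0.13 for Gria3 to 0.53 for Cacng4.

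Nearest to Cacng2 were Ambra1 and Hip1 (both 0.027), to Cacng3 Dlg2 (0.062) and Sertad2 (0.068), and to Cacng8 Tnks1bp1 (0.033) and Rasl10a (0.034). Nearest to Cacng4 were Asic1 (0.097) and Stard10 (0.11), against its median of 0.53 over all genes. Nearest to Cnih2 were Susd4 (0.025) and Hk1 (0.030), and to Cnih3 Krt2 (0.035) and Dcakd (0.050). Krt2 is low, at 0.653 FPKM in replicate 5 and 1.36 to 2.17 elsewhere. The pseudocount of 1 shrinks its changes, so its match to Cnih3 holds on this scale only. Hip1 (1.61 to 2.12 FPKM) and Sertad2 (1.25 to 1.99) are low too. Among the members, the closest pairs were Cacng8 with Cnih2 (0.071) and Cacng8 with Cnih3 (0.086). Without replicate 5, 2 of the 20 genes were still among the nearest, Vstm2a for Gria2 and Tmem63a for Gria4.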

How the data were processed

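The authors deposited 1 table of FPKM with 1 column per library. The unit is in the table's name. The submitters' processing notes name the build mm10. The aligner, counter, annotation and filters were not given in the sources used here. With FPKM, a gene that takes many reads lowers the values of the rest. Columns were matched to samples by library name.

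Analyses used log2(FPKM + 1) over the 12052 genes whose median FPKM was 1 or more; this scale understates changes of low genes. Reads, depth and gene lengths were recovered from the step of 1 read, with RefSeq gene spans fixing the scale: of 16631 genes, 500 gave 1 common value of step times span, and 99.3% then had a length within 0.01 of a whole number. Counting error covers counting only. With 1 group no test between groups was made; replicate 5 was described because the choice of genes names it, and Dixon's limit served only to pick values for a closer look. Coding sequences came from GENCODE M21. Read recovery, the search for the lowest library and that for nearest genes were tested on simulated data.

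Members and gene lists were chosen with earlier results of these data known. Named genes are the 10 members, the 2 most and 1 least variable of each further list of AMPA receptor genes, and the 2 nearest genes per member. All other named genes, single marker genes among them, were picked after their values were seen, also where the sentence does not say so. Alternatives were a pseudocount of 0.1, 2 rescalings, a median FPKM minimum of 5 or none, leaving out each library and, added after seeing the data, other gene lengths. Python 3.11.15, numpy 2.4.6, pandas 2.3.3, matplotlib 3.10.9 and Biopython 1.88 were used.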

Additional observations from a re-analysis of the deposited data

Results flagged for a closer look

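A library was listed here where its gap to the nearest other took more of the range of all 7 than Dixon's 95% limit for 7 values allows; chance nominally lists about 1 in 20 sets, and 14 of 64 sets were listed, 12 of them for replicate 5. Replicate 5 was already singled out by earlier results of these data, and many sets share genes, so the list is a description. Among the 45 single genes, 8 (17.8%) were listed for replicate 5, beside 6.96% of all 12052 genes.

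Among the members and their ratios, replicate 5 stood far above the others for Cacng4 (18.6 FPKM), for the share of Cacng4 among the TARPs (17.1%) and for the ratios of Cacng3 to Cacng8 (0.813) and of Cacng4 to Cacng8 (0.418). It stood far below for the share of Cacng8 among the TARPs (40.9%). Replicate 4 stood far below for the share of Gria2 among the subunits (23.9%).

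Among the other AMPA receptor genes, replicate 5 stood far above for Gsg1l (16.7 FPKM), Syndig1 (19.8) and Akap5 (20.4). It stood far below for Olfm1 (181), Nptxr (3.68), Nsf (244) and Abhd6 (3.91), a lipase gene that acts on receptor assembly. Replicate 4 stood far above for Epb41l1 (30.6), which encodes a cytoskeletal anchor of GluA1.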

How the results depend on the processing

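The share of Gria1 and its ratio to Gria2 moved beyond the spread between libraries only with the gene length. Length leaves the difference of a single gene between libraries as it is, but not that of sums and shares. Lengths from GENCODE M21, added after seeing the data, moved the median share of Gria1 among the subunits from 56.9% to 65.0% (all exons), 45.8% (coding sequence only) and 37.6% (shortest nearly full coding transcripts). The ratio of Gria1 to Gria2 moved from 2.12 to 3.01, 1.14 and 0.878 in the same order; with the longest coding transcripts it was 2.19. With these lengths 3 or 4 of the neighbour pairs had separate ranges in the deposited order, but not always the same pairs. Cacng3 above Cnih3 was not among them under any of these lengths. Gria1 above Gria2 and Cacng8 above Gria3 were among them with all exons and the longest coding transcripts. With coding sequence only and with the shortest nearly full coding transcripts neither was. Leaving out 1 library in turn gave 3 to 6 neighbour pairs with separate ranges, the 6 without replicate 5. It gave a share of Gria1 of 56.7% to 57.3% and a ratio of 2.11 to 2.12. The count of members lowest in replicate 5 was 5 under both rescalings and both filters, while the share of all genes lowest there was 32.9% at an equal sum, 23.2% under upper-quartile scaling, 17.1% with no filter and 28.3% at the higher minimum. The count was 5 or 6 with another library left out. The members' median log2 difference in replicate 5 was -0.21 after rescaling to a sum of 1000000 and -0.14 under upper-quartile scaling, where the median over all genes was -0.05 and 0.01. No member's difference changed sign under the pseudocount, the rescalings or with 1 other library left out, while after rescaling to an equal sum those of Adarb1 (0.05) and Adarb2 (0.01) became -0.02 and -0.06. No paired analysis was possible because the labels give 1 group.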
